A study of Mus musculus with 5 samples.

Results

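The 48 genes described here encode the DNA replication machinery and its immediate supply: origin recognition and licensing factors, the replicative helicase, primase and polymerases, the sliding clamp and its loader, nucleotide synthesis, histone supply, and the E2F1 and cyclin E genes that drive entry into S phase. They were chosen by gene symbol, with earlier results of these data known, and all 48 were found among the 53927 genes of the deposited table. RNA was measured in 5 libraries of primary nephron progenitor cells, which renew themselves in the embryonic kidney and form its nephrons, grown from C57BL/6J mouse embryos in a published progenitor culture and collected after 1 passage. The genotypes were Dis3l2+/+ (WT, 2 libraries) and Dis3l2-/- (KO, 3 libraries), and the labels name no other treatment. Dis3l2 is an RNA-degrading enzyme that acts on transcripts with uridine tails, and people without it have the overgrowth disorder Perlman syndrome. The labels give neither the part of Dis3l2 that was removed, nor the number of embryos behind a library, nor the sex of the embryos. Whether each library came from separate embryos is likewise not stated. Xist and Ddx3y, given below, differ between libraries of the same genotype, so not all libraries of a genotype share the same embryos. The p-values below reflect library-to-library spread, which may be technical in part.

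Replication starts at origins bound by the origin recognition complex, on which Cdc6 and Cdt1 load the Mcm2 to Mcm7 ring in G1. In S phase Cdc45 and the GINS complex join that ring to form the active helicase, and primase with DNA polymerases alpha, delta and epsilon copies the strands behind it. Most of these genes are targets of E2F factors, which are held by pocket proteins until cyclin D and cyclin E kinases release them, so their messages follow the share of cells that cycle. Nephron progenitors divide in the embryonic kidney and are lost when they differentiate into nephrons. In bulk RNA, fewer cells in S phase and less RNA per cell cannot be told apart.

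The promoters are shown first, because the E2F link is what the set has in common by textbook account. RefSeq start sites (GRCm38.p6) were available for 40 of the 48 genes, and the 250 bases before each start were searched on both strands for the 4 E2F words TTTCCCGC, TTTCGCGC, TTTGCCGC and TTTGGCGC, which can overlap each other. Some genes had several start sites, and a word before any of them was counted. Some windows, such as those of Cdc6, E2f1 and Mcm7, lay within the gene as GENCODE M21 bounds it. Of the 40 genes, 9 held at least 1 word (22.5%): Cdc6, Gins3, Mcm5, Mcm6, Mcm7, Orc1, Orc3, Pola1 and Rfc3. The share was 2.16% of the 27025 genes with a start site in the same table, and 2.69% of the 16385 of them that are protein-coding in GENCODE M21. The CCAAT word was found before 62.5% of the 40 genes and 37.5% of all, and the words TTTGAA or TTCGAA before 17.5% and 19.6%. The members' windows were richer in G and C (median 61.6%, against 52.4% over all windows), and the shares were not adjusted for that. A match is a description of letters, and the absence of one says only that these words are not in this window. Below are 3 promoters of genes whose values are given later. Mcm5 had KO values above WT, 1 of them by less than 1 read. Mcm6 had overlapping values, and Orc1 had KO values below WT. Each is written 5′ to 3′ on the gene's strand, with the E2F words in capitals.
Mcm5 (chr8:75109259-75109508, plus strand): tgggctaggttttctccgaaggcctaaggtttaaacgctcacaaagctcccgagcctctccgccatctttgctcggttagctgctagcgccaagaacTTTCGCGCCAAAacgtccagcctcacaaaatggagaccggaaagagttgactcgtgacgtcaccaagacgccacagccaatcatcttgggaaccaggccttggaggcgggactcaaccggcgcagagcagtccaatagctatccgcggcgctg
Mcm6 (chr1:128359706-128359955, minus strand): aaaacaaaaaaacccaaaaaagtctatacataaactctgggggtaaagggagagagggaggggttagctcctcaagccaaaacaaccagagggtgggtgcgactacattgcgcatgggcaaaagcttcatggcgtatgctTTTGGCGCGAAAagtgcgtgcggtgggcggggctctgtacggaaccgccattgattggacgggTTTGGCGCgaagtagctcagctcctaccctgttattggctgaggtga
Orc1 (chr4:108579204-108579453, plus strand): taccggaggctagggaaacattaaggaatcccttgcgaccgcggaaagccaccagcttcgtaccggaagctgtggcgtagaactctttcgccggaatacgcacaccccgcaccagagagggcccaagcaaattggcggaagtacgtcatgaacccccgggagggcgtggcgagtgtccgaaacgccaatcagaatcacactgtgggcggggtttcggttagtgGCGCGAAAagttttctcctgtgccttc
The capitals in Mcm5 are 2 words on opposite strands that share letters, 142 to 153 bases before the start. Mcm6 holds 3 words, of which 1 lies 40 to 47 bases before the start and the other two overlap at 99 to 110 bases. Orc1 holds 1 word, 20 to 27 bases before the start.

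Levels are given as deposited, in CPM, reads counted per M of an effective library size. The depth read from the steps of low values was 19.61 to 49.25 M assigned reads, KO replicate 1 being the deepest and KO replicate 3 the shallowest, and a level of 3 reads lies between 0.0639 and 0.141 CPM. Dis3l2, the targeted gene, was at 16.04 and 12.18 CPM in WT against 6.50, 4.93 and 4.70 in KO, with no overlap. Progenitor markers were present (11 of 12 listed genes passed the filter on low values, Eya1 at 168 to 274 CPM), although Pax2 was at 0.05 to 0.66 CPM. Six2 was at 18.97 and 18.82 CPM in WT against 31.86, 26.51 and 18.58 in KO. Osr1 was at 22.26 and 19.48 CPM in WT against 41.47, 64.56 and 27.32 in KO. Osr1 was the 1 gene of these 11 with every KO value over WT, where 7.85% of all genes tested had this, and 0 of the 11 were all under. The progenitor marker Crym was at 16.93 and 2.35 CPM in WT against 10.72, 3.34 and 2.26 in KO. Cited1, another, varied within KO too (17.05, 4.74 and 2.73 CPM), while Itga8 varied less (356 to 471 CPM over all libraries). The stroma marker Foxd1 (0.13 to 0.25 CPM) and the podocyte marker Nphs1 (0.06 to 0.50 CPM) were low. Of the other stroma markers Tbx18 was also low (0.14 to 0.56 CPM), but Col1a1 (227 to 656 CPM), Col3a1 (283 to 684 CPM) and Pdgfrb (45.99 to 141 CPM) were not. Xist was under 1 CPM and the Y-linked Ddx3y over 100 CPM in WT replicate 1 and KO replicate 3, with the reverse in the other libraries. Mitochondrial ribosomal RNA took 38.9% to 40.7% of the summed values in WT and 31.5% to 32.9% in KO, and the 7SK RNA took 11.9% in KO replicate 1 against 2.27% in KO replicate 3.

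All 48 replication genes were expressed in every library and passed the filter on low values, with between 99 reads (Cdt1 in KO replicate 3) and 12854 reads (Rrm1 in KO replicate 1) behind a value. Summed over the set, the level was 2167 and 2107 CPM in the WT libraries and 2299, 2207 and 2365 CPM in the KO libraries. As deposited, every KO sum thus lay above both WT sums, the KO mean being 107% of the WT mean. With mitochondrial RNA and 7SK left out of the scaling the sums were 2226 and 2178 in WT against 2284, 2129 and 2329 in KO, so that KO replicate 2 was below both WT libraries and the KO mean was 102% of the WT mean. The smallest two-sided p that an exact permutation test of 2 against 3 libraries can give is 0.1, so such a value cannot be called. Divided by the length of annotated exon, the WT means ran from 1.77 CPM per kb for Pola2 to 38.6 for Rrm2, with a median of 7.62. That length joins the exons of all annotated transcripts of a gene (8.29 kb for Pola2). It can exceed the length of the message, so ranks between genes depend on the annotation. Next to Rrm2 stood Pcna at 35.5 and Mcm4 at 35.2 CPM per kb, and next to Pola2 stood Cdt1 at 2.00 and Orc1 at 2.11. At the top the WT libraries of Rrm2, Pcna and Mcm4 overlapped, and at the bottom those of Cdt1 and Orc1 did, while both Pola2 values (1.74 and 1.79 CPM per kb) lay below them.

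**Figure D1:**
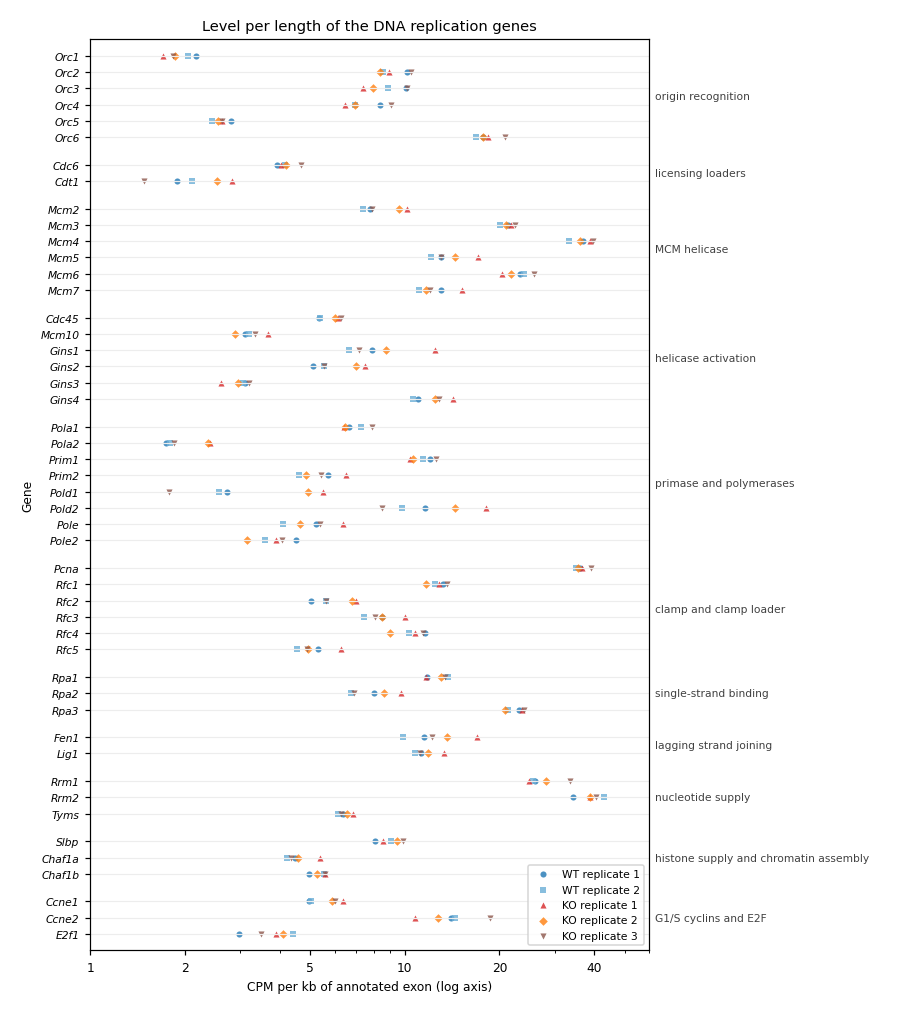
Each row is a DNA replication gene, grouped by role, and each point the level of 1 library in CPM per kb of annotated exon on a log axis (blue shades WT; red, orange and brown KO). Levels differ between genes far more than between libraries, from 1.77 CPM per kb for Pola2 to 38.6 for Rrm2 in the WT mean, while Pold1, Pold2, Cdt1 and Gins1 show wide gaps between KO libraries.

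The question of the design is which transcripts differ without Dis3l2. None of the 48 genes passed limma with Benjamini-Hochberg adjustment over all 14884 genes tested, where 1 gene in all did (0.00672% of genes). At an unadjusted p under 0.05 limma also counted 0 of the 48, against 2.77% of all genes, and the authors' deposited table, where 17 genes (0.0315%) had an FDR under 0.05, gave none of the 48 a p under 0.05. Estimates were small: the log2 fold change (KO over WT), on the log2(CPM + 1) scale used throughout, ran from -0.20 (Orc1) to 0.44 (Pold1). The median over the 48 was 0.11, against 0.01 over all genes tested, and 34 were above 0 (52.9% of all genes were). These 34 became 39 when columns were scaled to plain CPM (59.5% of all genes) and 28 when mitochondrial RNA and 7SK were left out of the scaling (39.6% of all genes), so the split moves with the scaling. The median was 0.06 without KO replicate 1 and 0.07 without WT replicate 2, where that of all genes was 0.01 in both. With mitochondrial RNA and 7SK left out of the scaling it was 0.04, where that of all genes was -0.05, so both were lower than as deposited.

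The 95% intervals of the fold changes say what sizes the data leave room for. All 48 held 0. The folds counted here are of CPM + 1, the scale of the fit. For 47 of the 48 the whole interval lay within 2-fold in either direction, and for 33 within 1.5-fold. A 1.5-fold higher value in KO was outside the interval of 34 genes and a 1.5-fold lower value outside that of 46. The exceptions to the latter were Pold1 (-0.60 to 1.48) and Ccne2 (-0.60 to 0.49). For genes at low CPM, such as Orc1, a fold of CPM itself is a smaller step on this scale. Counts for folds of CPM itself can therefore be lower. The median standard error was 0.15 on the log2 scale, so differences of about that size were within the error of these libraries. The spread within genotypes was small for this table. The within-group SD, from the median variance over genes, was 0.146 on the log2 scale for the 48. It was 0.182 for the 9864 genes with a mean of at least 5 CPM. The median gap between the highest and lowest library, which also holds the genotype difference, was 0.35 against 0.44.

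**Figure D2:**
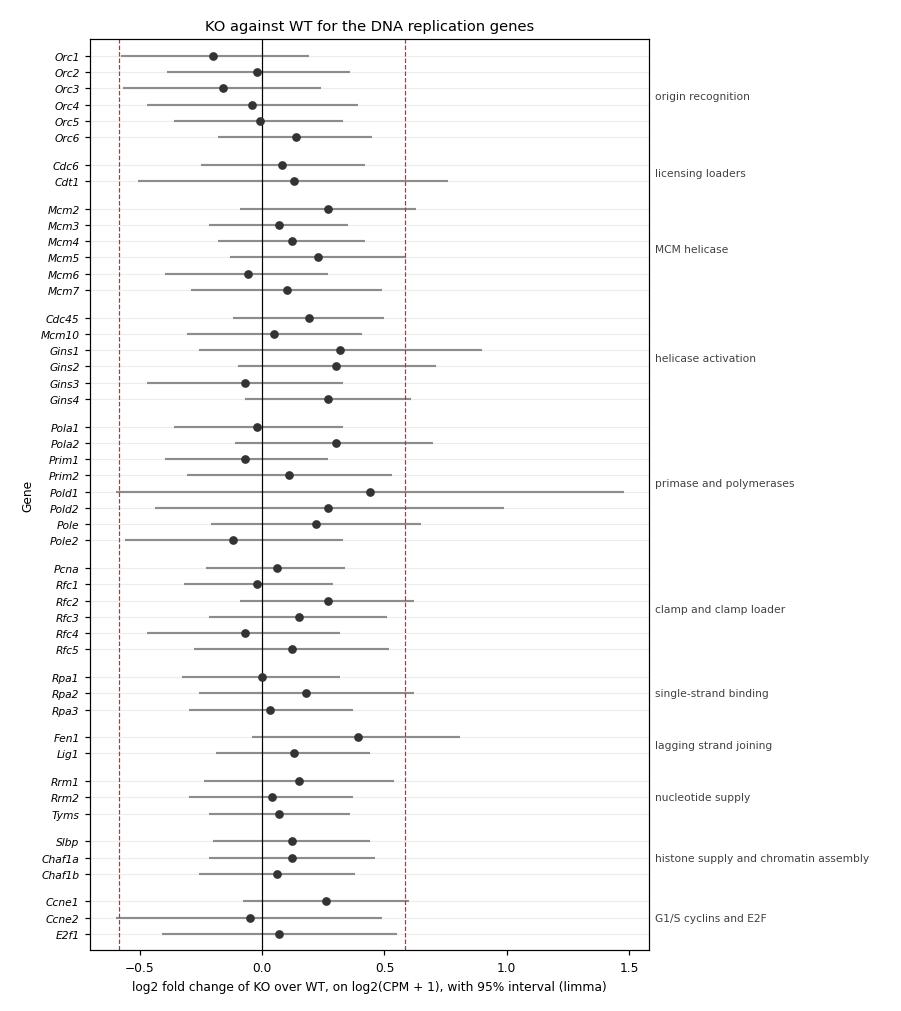
Points are KO over WT log2 fold changes for each DNA replication gene on the log2(CPM + 1) scale, and bars the 95% interval from limma (2 WT and 3 KO libraries). The solid line marks 0 and the dashed lines 1.5-fold of CPM + 1 either way. Every bar crosses 0, and the widest belongs to Pold1 (-0.60 to 1.48).

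For 9 of the 48 genes all KO values exceeded both WT values (7.85% of all genes tested did so), and for 1, Orc1, all KO values were under both (6.98% of all genes). The 9 were Orc6, Mcm2, Mcm5, Cdc45, Gins4, Pola2, Rfc2, Fen1 and Ccne1. For Mcm5, KO replicate 3 exceeded WT replicate 1 by less than 1 read. The number above was 17 with columns scaled to plain CPM, where 11.5% of all genes did so, and 4 with mitochondrial RNA and 7SK left out, where 4.62% did. With fewer libraries groups separate more often, and the background moves too. The number was 23 without WT replicate 1 (21.5% of all genes), 15 without WT replicate 2 (20.2%), 12 without KO replicate 1 (16.3%), 16 without KO replicate 2 (11.0%) and 18 without KO replicate 3 (23.5%). The number below was 4 without WT replicate 1 (18.3% of all genes), 4 without WT replicate 2 (21.5%) and 8 without KO replicate 3 (18.0%). Without KO replicate 3, 7 of the 48 had an unadjusted p under 0.05 with limma, as did 10.3% of all genes, and none passed the adjustment. In all, 19 of the 48 share exon bases with another gene, 16 of them with a gene on the opposite strand, and the sources do not say whether strand was used in counting.

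**Figure D3:**
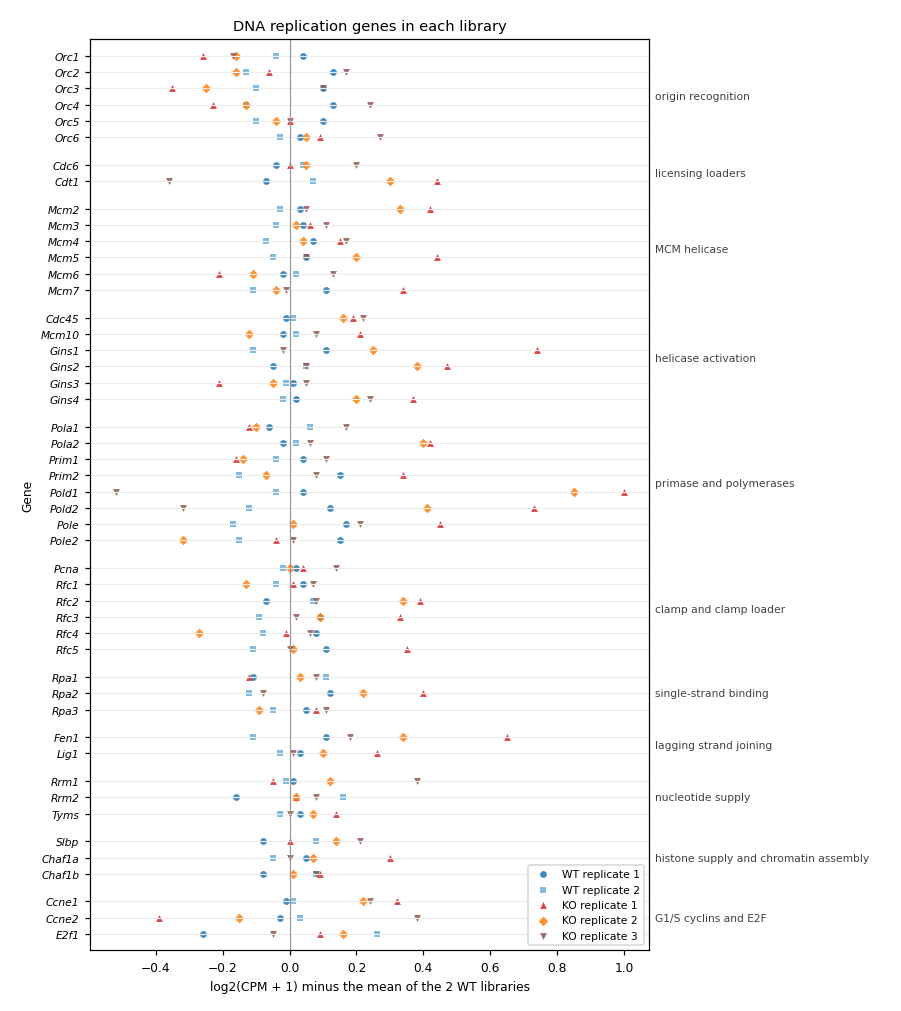
Each point is the log2(CPM + 1) of 1 library minus the mean of the WT libraries, for each of the 48 DNA replication genes grouped by role. Most points lie within 0.4 of 0. KO replicate 1 and KO replicate 3 stand at opposite ends of the KO libraries for Pold1, Pold2, Gins1, Cdt1 and Ccne2.

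Among the 6 genes of the origin recognition complex, the loader that marks origins, 1 was above 0 and 5 below, with a median log2 fold change of -0.03. Orc1 (chromosome 4, 108579423 to 108614833, plus strand), the subunit made in G1, was at 7.56 and 7.09 CPM in WT against 5.95, 6.46 and 6.40 in KO. Its groups do not overlap, and the log2 fold change was -0.20 (SE 0.16, unadjusted p = 0.263, limma). Orc6 (chromosome 8, 85299632 to 85308278, plus strand), the smallest and most abundant subunit per length here at 17.3 CPM per kb in WT, was at 43.59 and 41.60 CPM in WT against 45.52, 43.98 and 51.49 in KO. The KO libraries lay above the WT libraries by a narrow margin, with a log2 fold change of 0.14 (SE 0.13). Orc5 had 17.34 and 15.03 CPM in WT against 16.15, 15.66 and 16.13 in KO, all KO values between the WT values. Orc2, Orc3 and Orc4 had log2 fold changes of -0.02, -0.16 and -0.04, with KO replicate 3 the highest of the KO libraries in each.

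Both licensing factors were measured with overlapping groups. Cdc6, the ATPase that recruits the helicase to origins, was at 20.54 and 21.70 CPM in WT against 21.05, 21.86 and 24.45 in KO. Cdt1, its partner, which is degraded once S phase begins, was at 5.94 and 6.64 CPM in WT against 8.89, 7.95 and 4.66 in KO. KO replicates 1 and 2 were above both WT libraries and KO replicate 3 below both, and the KO libraries differed from each other by more than the genotype means did (log2 fold change 0.13, SE 0.27).

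The 6 subunits of the MCM ring, which act in equal numbers in the protein complex, differed in message level per length of exon. The joined exon length was 6.96 kb for Mcm2, against 3.59 kb (Mcm4) to 4.67 kb (Mcm6) for the other subunits. Mcm2 was lowest per length, but in CPM its WT values, given below, were close to those of Mcm5 and of Mcm7 (57.59 and 49.08 CPM). Per length of exon, WT means were 35.2 CPM per kb for Mcm4, 23.6 for Mcm6, 20.7 for Mcm3, 12.6 for Mcm5, 12.1 for Mcm7 and 7.58 for Mcm2. Mcm5 and Mcm7 did not differ beyond the WT spread, with 13.0 and 12.1 CPM per kb for Mcm5 and 13.0 and 11.1 for Mcm7. Mcm2 (chromosome 6, 88883474 to 88898780, minus strand) measured 54.02 and 51.43 CPM in WT against 71.07, 66.49 and 54.60 in KO. Mcm5 (chromosome 8, 75109569 to 75128439, plus strand) measured 51.94 and 48.34 CPM in WT against 68.23, 57.89 and 51.96 in KO. In both, KO replicates 1 and 2 were higher by more than 5 CPM while KO replicate 3 exceeded the higher WT library by under 1 CPM. For Mcm5 that margin was under 1 read, which is 0.046 CPM in WT replicate 1 and 0.047 CPM in KO replicate 3. These libraries are thus tied for Mcm5. The log2 fold changes were 0.27 (SE 0.15, unadjusted p = 0.121, limma) for Mcm2 and 0.23 (SE 0.15) for Mcm5. Mcm6 had 108 and 112 CPM in WT against 95.23, 102 and 120 in KO, groups that overlap fully. Mcm3, Mcm4 and Mcm7 had log2 fold changes of 0.07, 0.12 and 0.10, with the KO range reaching into the WT range in each.

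Among the factors that turn the loaded ring into a helicase, 5 of 6 were above 0, with a median log2 fold change of 0.23. Cdc45 (chromosome 16, 18780447 to 18811987, minus strand), the helicase cofactor loaded at firing, was at 18.69 and 18.85 CPM in WT against 21.52, 21.11 and 22.06 in KO. Its libraries were tight within each genotype, and the log2 fold change was 0.19 (SE 0.13, unadjusted p = 0.193, limma). Gins4 (chromosome 8, 23226616 to 23237659, minus strand) measured 14.84 and 14.32 CPM in WT against 19.16, 16.90 and 17.45 in KO, with an estimated log2 fold change of 0.27 (SE 0.14). Cdc45 and Gins4 are the genes of the group whose KO libraries were all above WT. Gins2 came close, with 20.96 and 22.68 CPM in WT against 30.67, 28.69 and 22.67 in KO. Exons of Gse1 on the opposite strand cover 67.3% of the Gins2 exon bases, and Gse1 was also highest in KO replicate 1 (17.22 CPM, against 5.22 to 8.85 elsewhere), so the Gins2 value is uncertain. Gins1 had 11.96 and 10.08 CPM in WT against 18.99, 13.26 and 10.82 in KO, the third widest range of the set at 0.85 log2 units. In it KO replicate 1 stood alone and KO replicate 3 lay between the WT libraries. Mcm10, a firing factor, had 23.93 and 24.68 CPM in WT against 28.24, 22.21 and 25.68 in KO, and Gins3 had a log2 fold change of -0.07.

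The primase and polymerase genes held both the largest estimate and the widest spread. Pold1 (chromosome 7, 44532746 to 44548849, minus strand), the catalytic subunit of polymerase delta, was at 13.22 and 12.50 CPM in WT against 26.66, 23.95 and 8.65 in KO. KO replicates 1 and 2 were far above WT, whereas KO replicate 3 was below both WT libraries, on 184 reads. The log2 fold change of 0.44 had a standard error of 0.44 (adjusted p = 1, limma). It was 0.16 without KO replicate 1, 0.24 without KO replicate 2 and 0.92 without KO replicate 3, and did not pass the adjustment in any of these. Pold2, its accessory subunit, repeated the pattern with 22.07 and 18.64 CPM in WT against 34.25, 27.23 and 16.08 in KO. The set's ranges of 1.52 and 1.05 log2 units for Pold1 and Pold2 were its widest. Pola2 (chromosome 19, 5940542 to 5964202, minus strand), the regulatory subunit of polymerase alpha, was at 14.47 and 14.81 CPM in WT against 19.95, 19.65 and 15.33 in KO, with no overlap and a log2 fold change of 0.30 (SE 0.17, unadjusted p = 0.125, limma). Pola1, the catalytic subunit of the same enzyme, had 58.66 and 64.14 CPM in WT against 56.41, 57.11 and 69.36 in KO, with an estimated log2 fold change of -0.02. The Pola1 to Pola2 ratio per length was 3.82 and 4.08 in WT and 2.66, 2.74 and 4.26 in KO, so that KO libraries lay on both sides of WT. Prim1, the primase catalytic subunit, and Pole2 had log2 fold changes of -0.07 and -0.12. Prim2 and Pole had 0.11 and 0.22, with overlapping groups in all of these.

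Pcna, the sliding clamp that holds polymerases on DNA, was among the least variable of the set, with 86.34 and 84.11 CPM in WT against 87.69, 85.08 and 93.77 in KO. Its interval of -0.23 to 0.34 leaves out a 1.5-fold difference in either direction. The clamp loader subunit Rfc2 (chromosome 5, 134581366 to 134601805, plus strand) measured 31.86 and 35.42 CPM in WT against 44.18, 42.82 and 35.55 in KO, with an estimated log2 fold change of 0.27 (SE 0.15, unadjusted p = 0.116, limma). KO replicate 3 exceeded the higher WT library by under 1 CPM. Exons of Lat2 overlap 15.1% of the Rfc2 exon bases. Rfc1, the large subunit, had 79.48 and 75.44 CPM in WT against 77.89, 70.73 and 81.59 in KO. Rfc3, Rfc4 and Rfc5 had log2 fold changes of 0.15, -0.07 and 0.12. The single-strand binding subunits Rpa1, Rpa2 and Rpa3 had -0.00, 0.18 and 0.03, with Rpa1 at 65.66 and 76.64 CPM in WT against 65.34, 72.70 and 74.86 in KO.

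Of the genes that finish the lagging strand, Fen1 (chromosome 19, 10199132 to 10204169, minus strand), the flap nuclease, had the smallest p of all 48. It was at 27.96 and 23.98 CPM in WT against 41.11, 32.93 and 29.44 in KO, with no overlap. The means were 26.0 ± 2.81 CPM (SD, n = 2) and 34.5 ± 5.99 CPM (SD, n = 3). The estimate was 0.39 on the log2 scale (SE 0.18) with an interval of -0.04 to 0.81, and the adjustment over all genes gave 1 (adjusted p = 1, limma). In the authors' deposited table Fen1 had a log2 fold change of 0.41 (FDR = 1). On the opposite strand, the antisense model Gm10143 covers 78.8% of its exon bases and the protein-coding gene Tmem258 covers 5.4%. Gm10143 had at most 0.63 CPM, and Tmem258 was also highest in KO replicate 1 (134.53 CPM, against 66.12 to 85.28 elsewhere), and its part in the Fen1 value was not tested. Lig1, the ligase that seals the fragments, had 48.13 and 46.30 CPM in WT against 56.83, 50.62 and 47.68 in KO, with KO replicate 3 between the WT libraries.

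The genes of nucleotide and histone supply had log2 fold changes between 0.04 and 0.15. Rrm1, the large subunit of ribonucleotide reductase and the most abundant of the 48 in CPM, had 285 and 282 CPM in WT against 274, 309 and 368 in KO. Rrm2, the small subunit whose message rises in S phase, had 94.88 and 119 CPM in WT against 108, 107 and 112 in KO, all KO values between the WT values. Thymidylate synthase, Tyms, had 38.72 and 37.25 CPM in WT against 41.81, 39.92 and 38.09 in KO. Slbp, which binds the end of histone messages, had 48.92 and 55.05 CPM in WT against 51.85, 57.39 and 60.19 in KO, and so overlapped. The chromatin assembly subunits Chaf1a and Chaf1b had log2 fold changes of 0.12 and 0.06. Exons of Ubxn6 on the opposite strand cover 52.5% of the Chaf1a exon bases, and Ubxn6 too was higher in KO replicates 1 and 2 (23.51 and 22.42 CPM) than in the other libraries (15.28 to 15.90 CPM), so the Chaf1a value is uncertain.

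The cyclin E pair, which activates Cdk2 at the start of S phase, showed unlike patterns. Ccne1 (chromosome 7, 38097984 to 38107534, minus strand) measured 13.26 and 13.41 CPM in WT against 16.90, 15.66 and 15.94 in KO. Its libraries were close to each other within each genotype, and the log2 fold change was 0.26 (SE 0.14, interval -0.08 to 0.60, unadjusted p = 0.110, limma). Ccne2 (chromosome 4, 11191351 to 11204779, plus strand) measured 48.88 and 50.69 CPM in WT against 37.63, 44.82 and 65.27 in KO, so that KO libraries lay on both sides of WT. Per length, Ccne2 was above Ccne1 by 2.81 and 2.88 times in WT and by 1.70, 2.18 and 3.12 times in KO. Exons of Ints8 on the other strand cover 17.4% of the Ccne2 exon bases. E2f1, the activator of the whole programme, had 9.37 and 13.94 CPM in WT against 12.27, 12.91 and 11.00 in KO, all KO values between the WT values. For E2f1 the gap between the WT replicates, -0.53 log2 units for replicate 1 minus replicate 2, exceeded that between genotypes (log2 fold change 0.07, SE 0.20).

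KO replicate 2 lay between KO replicates 1 and 3 for 27 of the 48 genes and outside them for the rest. KO replicate 1 was the highest KO library for 24 genes and KO replicate 3 for 22, while KO replicate 2 was the highest for Orc1 and E2f1. The log2 difference of KO replicate 1 minus KO replicate 3 ran from -0.78 for Ccne2 to 1.52 for Pold1, and was 1.05 for Pold2, 0.81 for Cdt1 and 0.76 for Gins1. Across the 48 genes it went with the GC content of the longest transcript, with a Pearson r of 0.72 and a Spearman rho of 0.69, where all tested genes gave 0.42 and 0.46. The 24 genes at or above the median GC of 47.6% had a median difference of 0.27, with 19 of the 24 higher in KO replicate 1, and the 24 below it had a median of -0.08, with 5 higher. Length showed little relation, with r of -0.16. These are correlations across genes that share 2 libraries and their depths, so they carry no p.

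The genotype estimates followed GC content as well. Across the 48 genes the KO over WT log2 fold change had an r of 0.59 with GC content (0.27 over all genes tested), and its median was 0.16 in the GC-richer genes and 0.01 in the rest. With each library's trends in GC content and length removed, an alternative chosen after seeing the data, the median of the 48 was 0.08 and 37 were above 0 (49.2% of all genes were). Under it Pold1 had a log2 fold change of 0.27 in place of 0.44, Cdt1 -0.01 in place of 0.13, and Pold2 0.10 in place of 0.27. Fen1 had 0.32 and Mcm2 0.25, and 12 genes had all KO values over WT (8.71% of all genes). The gap between KO replicates 1 and 3 was then 0.98 for Pold1, 0.57 for Pold2 and -0.52 for Ccne2, while that of Gins1 stayed at 0.76. KO replicate 1 also had the greatest depth and the highest 7SK share and KO replicate 3 the lowest of both. KO replicate 3 was also the only KO library with high Ddx3y and low Xist. The part of depth, 7SK share and sex in these gaps was not tested.

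**Figure D4:**
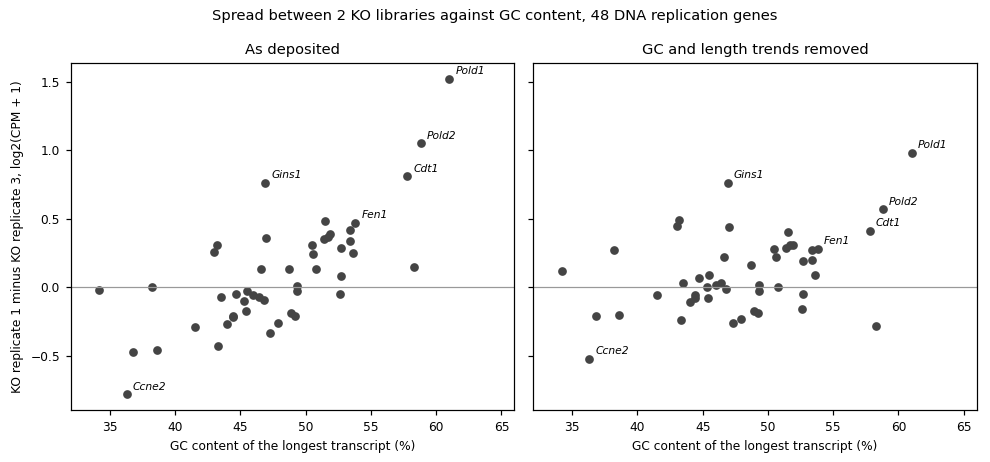
Points are the 48 DNA replication genes, with the GC content of the longest transcript (%) against the log2 difference between KO replicate 1 and KO replicate 3, as deposited (left) and after removal of each library's GC and length trends (right). On the left the points climb from Ccne2 (-0.78) to Pold1 (1.52). On the right Pold1 is at 0.98 and Ccne2 at -0.52, and Gins1 is at 0.76 in both.

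Values were then set beside the promoter words. The 9 genes with an E2F word had log2 fold changes from -0.20 to 0.23 with a median of -0.02, and the 31 without one from -0.12 to 0.44 with a median of 0.07. Of the promoters printed above, that of Mcm5 belongs to a gene whose KO values all exceeded WT, that of Orc1 to the gene whose KO values were all under WT, and that of Mcm6, with the most words, to a gene whose groups overlapped. No test was made of these medians, which come from short lists.

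Other genes of the same pathway were compared through 6 lists, and none of their 139 genes passed limma over all genes. Of 38 other fork, firing and chromatin assembly genes, 25 were above 0, with a median of 0.05. All KO values were over WT for 5 (7.85% of all genes tested) and under WT for 0 (6.98% of all genes). Pole3, a small subunit of polymerase epsilon, had 36.45 and 32.96 CPM in WT against 56.58, 45.75 and 39.60 in KO (log2 fold change 0.42, SE 0.18, unadjusted p = 0.0481, adjusted p = 1, limma). Of 23 other nucleotide supply genes, 11 were above 0, with a median of -0.02, and the folate enzyme gene Shmt1 had the smallest p with a log2 fold change of -0.29. Among 17 other E2F, DP and pocket protein genes, 8 were above 0 with a median of -0.02, and E2f7, a repressor of the family, had 0.19. The 18 replication stress checkpoint genes had a median of 0.03 with 10 above 0, and the sensor kinase gene Atr had -0.16.

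Regulators of the G1/S step held the smallest p-values of these 6 lists. Of 23 such genes, 14 were above 0, with a median of 0.08. All KO values were over WT for 5 (7.85% of all genes tested) and under WT for 1 (6.98% of all genes). Cdkn1c, an imprinted inhibitor of cyclin-dependent kinases, measured 32.14 and 27.38 CPM in WT against 59.58, 45.50 and 47.31 in KO. The estimate was 0.75 on the log2 scale (SE 0.17, unadjusted p = 0.003, adjusted p = 1, limma). Ccnd3, a D-type cyclin gene, was at 15.58 and 15.90 CPM in WT against 23.16, 25.89 and 19.37 in KO (log2 fold change 0.50, SE 0.17, adjusted p = 1, limma). Ddb1, part of the ligase that degrades Cdt1, had 491 and 446 CPM in WT against 552, 584 and 632 in KO. In all 3 the KO values exceeded both WT values.

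**Figure D5:**
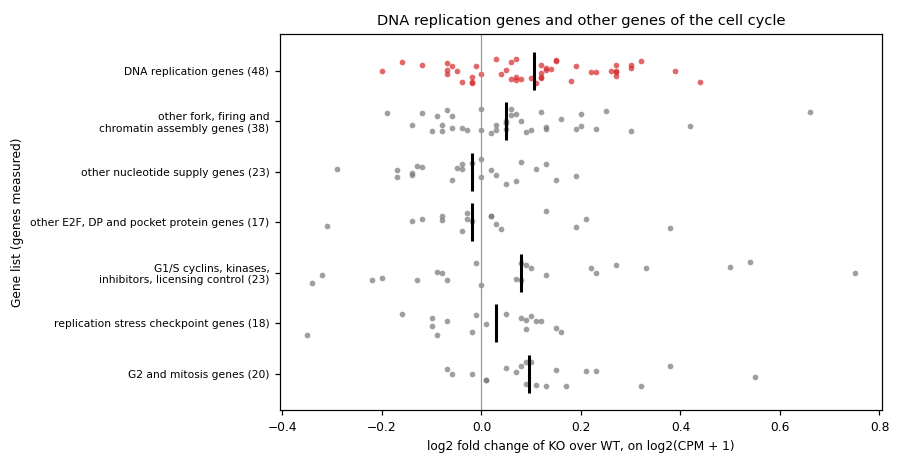
Each point is the KO over WT log2 fold change of 1 gene on the log2(CPM + 1) scale, in rows by gene list with the number measured, and the black bar is the median of the list. The 48 DNA replication genes (red) have a median of 0.11 and lie between -0.20 and 0.44. Lists of other cell cycle genes have medians between -0.02 and 0.10, and Cdkn1c at 0.75 is the point farthest to the right.

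Genes of G2 and mitosis separated the libraries along other lines than genotype. The summed level of these genes was 1863 and 1470 CPM in WT against 2212, 1502 and 1739 in KO, WT replicate 1 and KO replicate 1 being the highest of their genotypes. Of the 20 genes 17 were above 0 with a median of 0.10, and 0 had groups that did not overlap. Over all genes tested, 7.85% had all KO values over WT and 6.98% all under. Their median gap between highest and lowest library was 0.68 log2 units, against 0.35 for the replication genes. Mki67, the proliferation marker, had 432 and 360 CPM in WT against 512, 343 and 439 in KO.

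Markers of other cell types also varied between libraries. The summed level of 5 leukocyte markers was 7.65 and 7.21 CPM in WT against 5.69, 4.95 and 5.13 in KO, with Tyrobp at or under 3 reads in every library and Ptprc at most 0.11 CPM. Cd68 and Mrc1 made up most of the sum, and both were lower in every KO library. The third measured marker, Csf1r, was at 0.65 and 1.23 CPM in WT against 0.79, 1.34 and 1.74 in KO, so the list had no common direction. The 8 renal stroma markers summed to 718 and 1527 CPM in WT against 722, 1291 and 961 in KO, most of it collagen. Of the 6 stroma markers that passed the filter 2 were above 0, and within each genotype the sum was lowest in replicate 1. Col1a1, Col3a1, Pdgfra and Pdgfrb were each lowest there too, but Meis1 and Tcf21 were highest there. Meis1 was at 51.06 and 35.81 CPM in WT against 86.77, 39.67 and 38.61 in KO. Tcf21 was at 17.71 and 9.97 CPM in WT against 20.44, 12.66 and 8.56 in KO. The part of cell composition in the replication gene values was not tested.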

How the data were processed

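RNA of 5 libraries was aligned to mm10; HISAT2 2.1.0, featureCounts (no version) and edgeR 3.20.1 are the tools listed, per the submitters' processing notes. No annotation release, strand setting or form of normalization is stated there. The deposited values are a normalized signal in CPM with 2 decimals, scaled to effective library sizes, as the column sums show. The authors' deposited log2 fold change, log2 average CPM, likelihood ratio score, p-value and FDR were used only where named. Values lay on steps of 1 read, but rounding kept 4 of the columns from meeting the rule for a count test, so none was run. Differences were tested with limma 3.58.1 (R 4.3.3, trend option) on log2(CPM + 1), genotype as the 1 term, keeping genes that reached 0.5 CPM in 2 or more libraries, two-sided, with Benjamini-Hochberg adjustment over 14884 genes and a threshold of 0.05. The scripts were tested on simulated data. Members and lists were chosen with earlier results of these data known. Members named in full were those with no overlap, those with the smallest and largest p of a role and the 6 with the widest range; from other lists the 3 with the smallest p were eligible. Exon length, GC content and positions came from GENCODE M21 (GRCm38), which matched all 48 genes (42 with the same version). For a symbol with several rows the row with the highest mean was used. Depth was 19.61 to 49.25 M assigned reads, and counting error is smallest in the deepest library. Alternatives were other pseudocounts, filters and scalings, a replicate block, a sex term, each library left out, and GC and length trends removed.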

Additional observations from a re-analysis of the deposited data

How the results depend on the processing

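The number of the 48 genes above 0 stayed between 28 and 40 over the 15 alternatives, and 27 of the 48 (24 above 0, 3 below) kept their sign in all of them. The count of genes called among all tested (1) was 0 with a pseudocount of 5, no filter, median-of-ratios scaling, a sex term or GC and length trends removed, and ran from 0 to 8 with 1 library left out. The median log2 fold change of the 48 (0.11) was 0.04 with mitochondrial RNA and 7SK left out of the scaling (all genes -0.05, against 0.01 as deposited) and 0.06 to 0.12 with 1 library left out. The number with every KO library above WT (9, and 7.85% of all genes) was 17 with plain CPM scaling (11.5%) and 4 without mitochondrial RNA and 7SK (4.62%). With 1 library left out that number was 12 to 23 (11.0% to 23.5% of all genes). The number below (1, and 6.98% of all genes) was 2 without mitochondrial RNA and 7SK, and 1 to 8 with 1 library left out. The share of all genes below was 18.0% to 21.5% without WT replicate 1, WT replicate 2 or KO replicate 3. No label says what replicate numbers share. Deviations of same-numbered libraries correlated at 0.41 and 0.54. With the replicate block, which leaves KO replicate 3 without a partner and 1 residual degree of freedom, limma called 390 genes (2.62%), 1 of the 48 among them (Pold1, log2 fold change 0.92, adjusted p = 0.0297); Pold1 had 0.16 without KO replicate 1 and 0.92 without KO replicate 3. At an unadjusted p under 0.05 the block counted 15 of the 48 and 21.1% of all genes. The cause of these shifts was not tested.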

Other observations

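Several regulators outside the replication set varied with the replicate number more than with genotype. They were noticed after their values had been seen. Ccnd1, a D-type cyclin gene, was at 5.43 and 26.89 CPM in WT replicates 1 and 2 and at 4.39, 22.39 and 17.82 CPM in KO replicates 1, 2 and 3. The kinase inhibitor gene Cdkn1a was at 6.21 and 30.33 CPM in WT against 4.88, 18.49 and 13.54 in KO, and Cdkn2b at 4.92 and 15.55 CPM in WT against 3.69, 13.85 and 10.49 in KO. In all 3 the libraries numbered 1 were the lowest of both genotypes, and the same libraries had the highest sums of G2 and mitosis genes within their genotypes. Of the 48 replication genes, 6 were lowest in the libraries numbered 1 of both genotypes (Cdc6, Mcm6, Pola1, Rpa1, Slbp and Ccne2). This was a lower share than among all genes tested (3269 of 14884), so the set did not share the pattern more than other genes. Highest in those libraries were 17 of the 48, a higher share than among all genes tested (4176 of 14884). No test was made of these shares.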
